A study of Homo sapiens with 12 samples.

Results

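The interleukin-1 (IL-1) family members followed here were 9 genes of the deposited count table, taken by symbol, of 58288 genes in all. They were the agonist ligands IL1A and IL1B, the receptor antagonist IL1RN, the ligand IL18, the receptors IL1R1, IL1R2, IL1RAP and IL18R1, and the IL-18 binding protein IL18BP. All 9 had a row of their own. RNA was sequenced from HL-60/S4, a human myeloid leukaemia line that grows as promyelocytes and takes a granulocytic form with all-trans retinoic acid (ATRA). The 12 libraries formed 4 groups of 3. Promyelocytes were undifferentiated cells given 16 ng/mL TNF-α or an equal volume of water (vehicle) for 2 h. Granulocytes were the same line after 4 days in 1 µM ATRA, given the same TNF-α or water treatment. All cells were at passage 8, came from a single seed stock and received calcium-supplemented medium during treatment. Replicates were separate flasks of this line, so p-values measure the spread between flasks and not between donors. The promyelocyte and granulocyte treatments were run as independent experiments.

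IL-1α and IL-1β signal through the receptor IL1R1 once it is joined by the accessory protein IL1RAP. The antagonist IL1RN occupies IL1R1 without signalling, and IL1R2 binds IL-1 as a decoy that lacks a signalling domain. IL-18 signals through IL18R1 with IL18RAP, and the secreted IL18BP holds IL-18 away from its receptor. IL-1β and IL-18 are made as precursors that caspase-1 cleaves within inflammasomes. Neutrophils and their precursors are known sources of IL-1β and IL1RN.

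Counts in a library totalled between 22829189 and 31895061 read pairs. Levels are given as CPM, counts scaled to library totals corrected by the trimmed mean of M-values (TMM), and 3 counts, the floor used here, stood at 0.0941 to 0.131 CPM. Counting error is all that this floor covers. Both forms of the line carried the transcripts of their labels. The summed level of 6 promyelocyte markers was 7777 to 8614 CPM in vehicle promyelocytes and 2246 to 2463 CPM in vehicle granulocytes, and 7 granulocyte markers rose from 389.5–421.6 to 4075–4220 CPM. The first sum was mostly MPO (means of 6422 and 2019 CPM), with ELANE at 1.79 CPM in vehicle promyelocytes. In vehicle granulocytes the second was mostly CYBB (2106 CPM) and CD38 (1164 CPM). Each of the 6 had a lower mean in vehicle granulocytes, and each of the 7 a higher one. Of 7 monocyte and macrophage markers, 4 were at or under 3 counts in every vehicle granulocyte library, with MARCO at 0, and the list summed to 49.1–51.4 CPM, mostly CSF1R (1327 to 1477 counts). This list summed to 30.6–34.0 CPM in TNF-α-treated granulocytes and to 2.90–4.76 CPM over the promyelocyte libraries. Lymphoid markers summed to 9.36–15 CPM with MS4A1 at 0, and epithelial and stromal markers to at most 0.756 CPM. What part these lists have in the results was not tested. In bulk RNA, fewer cells with a transcript and less of it per cell cannot be told apart. The TNF-α treatment was readable in both forms. NFKBIA, the NF-κB inhibitor that is itself an NF-κB target, rose by a log2 fold change of 3.91 in promyelocytes and 5.51 in granulocytes, and TNFAIP3, which encodes the feedback enzyme A20, by 3.63 and 5.08. Of all genes tested, 8.15% rose in promyelocytes and 24.4% in granulocytes. All 11 genes of this treatment list, which was chosen with earlier results of these data known, rose in both forms. Their adjusted p-values came from the edgeR quasi-likelihood test and were at most 2.77e-12. A gene is said to be called, to rise or to fall where that adjusted p was under 0.05.

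The members lie on chromosomes 2, 3 and 11 of hg38. IL1A (chr2:112773915-112784590, minus strand), IL1B (chr2:112829751-112836903, minus strand) and IL1RN (chr2:113107214-113134016, plus strand) sit within 360 kb. IL1R2 (chr2:101991844-102028544), IL1R1 (chr2:102064544-102179874) and IL18R1 (chr2:102311529-102398775) sit within 407 kb of the same chromosome, all on the plus strand. IL1RAP is at chr3:190514051-190659750, IL18 at chr11:112143251-112164117 on the minus strand and IL18BP at chr11:71998541-72005715. RefSeq promoter windows of build GRCh38.p14 were at hand for 8 of the 9 members and IL18 was not among them. The 250 bases before an annotated start are shown for the 4 members that rose with TNF-α in both forms, with matches to the motifs searched in capitals. That start is the most upstream among the RefSeq windows at hand. The counted gene begins upstream of it for all 4, and far upstream for IL1RN (start shown at 113117971) and IL18R1 (102355796).
IL1A, chr2:112784494-112784743, minus strand: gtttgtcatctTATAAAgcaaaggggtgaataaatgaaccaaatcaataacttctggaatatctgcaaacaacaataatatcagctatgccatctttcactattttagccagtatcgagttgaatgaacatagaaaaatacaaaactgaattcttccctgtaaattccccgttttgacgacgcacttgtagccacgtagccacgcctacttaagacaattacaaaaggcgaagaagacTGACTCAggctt
IL1B, chr2:112836780-112837029, minus strand: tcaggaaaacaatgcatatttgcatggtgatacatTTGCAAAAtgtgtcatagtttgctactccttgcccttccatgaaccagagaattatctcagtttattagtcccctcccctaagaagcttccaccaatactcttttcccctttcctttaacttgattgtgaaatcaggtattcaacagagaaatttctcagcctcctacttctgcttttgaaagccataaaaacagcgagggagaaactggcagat
IL1RN, chr2:113117721-113117970, plus strand: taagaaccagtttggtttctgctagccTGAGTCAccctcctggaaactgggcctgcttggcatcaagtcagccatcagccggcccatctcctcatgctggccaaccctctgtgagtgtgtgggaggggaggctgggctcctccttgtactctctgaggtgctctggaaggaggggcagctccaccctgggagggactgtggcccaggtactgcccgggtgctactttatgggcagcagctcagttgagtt
IL18R1, chr2:102355546-102355795, plus strand: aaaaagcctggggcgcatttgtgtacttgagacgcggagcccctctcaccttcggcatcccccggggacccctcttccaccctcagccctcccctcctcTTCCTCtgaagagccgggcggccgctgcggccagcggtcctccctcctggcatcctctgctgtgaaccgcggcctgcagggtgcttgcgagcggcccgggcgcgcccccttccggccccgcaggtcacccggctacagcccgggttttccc

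Motifs were searched on both strands over all 19 windows of the members and 34943 windows of all genes, except the TATA box, searched forward. The AP-1 letters TGANTCA, which 6.59% of all windows hold, matched 12 to 6 bases before the IL1A start and 223 to 217 bases before the IL1RN start. A second annotated start of IL1A had 2 such matches, 1 of them this same site. The C/EBP pair TTGCNNAA, in 9.06% of all windows, matched 215 to 208 bases before the IL1B start. The PU.1 core GAGGAA, in 23.6% of all windows, matched on the reverse strand of the IL18R1 window, 151 to 146 bases before its start, and in windows of IL1R1, IL1R2 and IL18BP. TATAAA, in 6.82% of windows, matched 239 to 234 bases before the IL1A start shown, 30 to 25 bases before the third IL1RN start and 30 to 25 bases before the first IL1R2 start. The kappaB consensus was in 5.2% of all windows and in none of the 19, which says only that its letters are not in these 250 bases. A match is a run of letters and not a measured site, and counts per gene do not tell which start was used.

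TNF-α raised both agonist ligands in promyelocytes and raised them further in granulocytes. IL1A, which encodes IL-1α, a ligand active without cleavage, had 17, 10 and 11 counts in the vehicle promyelocyte libraries and 260, 251 and 237 with TNF-α. Granulocytes gave 21, 32 and 20 counts with vehicle and 2814, 3426 and 2499 with TNF-α. The groups did not overlap in either form. The mean level went from 0.434 ± 0.105 to 8.73 ± 1.17 CPM in promyelocytes and from 0.846 ± 0.197 to 121 ± 7.26 CPM in granulocytes (SD, n = 3). The log2 fold change was 4.33 ± 0.212 (SE, adjusted p = 5.41e-12, edgeR) in promyelocytes, rank 26 from the highest of 16250 genes tested. In granulocytes it was 7.13 ± 0.101 (adjusted p = 7.93e-37, edgeR), rank 22 of 16944. On summed counts these were ratios of 19.8 (95% counting interval 14.3 to 28.2) and 143 (113 to 182).

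IL1B, which encodes the IL-1β precursor, was the more abundant agonist. Its counts were 444, 451 and 394 in vehicle promyelocytes and 2449, 2666 and 2853 with TNF-α, and 246, 307 and 311 in vehicle granulocytes and 7568, 8857 and 6297 with TNF-α. The TNF-α-treated granulocytes were above every other library. Mean levels were 14.9 ± 1.53 and 92.4 ± 2.68 CPM in promyelocytes and 10.0 ± 0.496 and 314.5 ± 28.8 CPM in granulocytes. The increase was 6.31-fold in promyelocytes (95% interval 5.67 to 7.03, adjusted p = 5.61e-16, edgeR) and 31.0-fold in granulocytes (28.1 to 34.2, adjusted p = 7.83e-37, edgeR).

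The antagonist gene IL1RN had the largest difference in response between the forms among the 7 members tested. Its counts were 52, 29 and 46 in vehicle promyelocytes and 170, 120 and 205 with TNF-α. Vehicle granulocytes had 1, 0 and 5 counts, and TNF-α-treated granulocytes had 592, 694 and 516. The promyelocyte increase was 3.98-fold (95% interval 2.93 to 5.39, adjusted p = 6.54e-07, edgeR). In granulocytes the summed count went from 6 to 1802, a ratio of 358 with a counting interval of 164 to 977. The fitted log2 fold change there was 8.38 ± 0.222 (SE, adjusted p = 4.83e-28, edgeR), rank 5 of 16944, and its size rests on those 6 vehicle counts. It was 10.09 without vehicle granulocyte replicate 3, which held 5 of them, and 7.79 without replicate 2, which held none. IL1RN passed the count filter in granulocytes only through its TNF-α-treated libraries.

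IL18, the ligand of the IL-18 receptor, moved otherwise. Promyelocytes had 53, 62 and 60 counts with vehicle and 51, 43 and 79 with TNF-α, and these ranges overlap. Its fold there was 1.00 with a 95% interval of 0.762 to 1.31 (adjusted p = 1.00, edgeR). Granulocytes had 512, 561 and 547 counts with vehicle and 248, 370 and 271 with TNF-α. Its level was 18.9 ± 0.730 CPM with vehicle and 12.2 ± 1.02 CPM with TNF-α, without overlap. The log2 fold change was -0.63 ± 0.0852 (SE, adjusted p = 7.81e-08, edgeR), a 1.55-fold decrease. ENSG00000255292 (0 to 11 counts) overlaps IL18 on the opposite strand without shared exon bases.

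**Figure D1:**
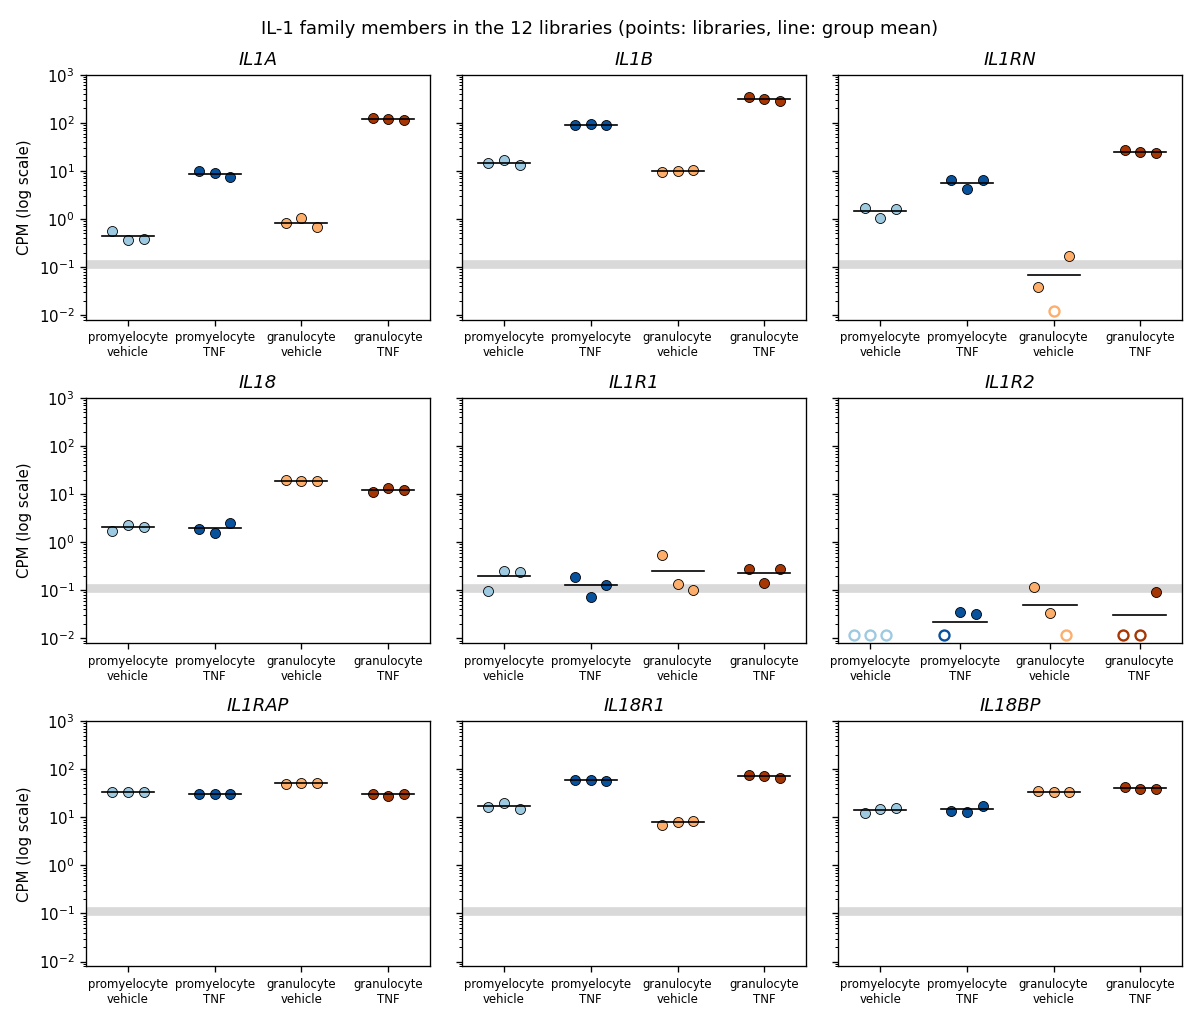
Level of each of the 9 members in the 12 libraries, in CPM on a log axis, with a line at each group mean of 3 libraries, hollow points drawn near the bottom for libraries with 0 counts, and a grey band for the level of 3 counts (0.0941 to 0.131 CPM). IL1A, IL1B, IL1RN and IL18R1 stand highest in TNF-α-treated granulocytes, and IL18 and IL1RAP stand highest in vehicle granulocytes. IL1R1 lies from just under the band up to 0.539 CPM, and IL1R2 lies within or under the band.

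The IL-1 receptors were scarce. IL1R1, the signalling receptor, had 3, 7 and 7 counts in vehicle promyelocytes, 5, 2 and 4 with TNF-α, 14, 4 and 3 in vehicle granulocytes and 6, 4 and 6 with TNF-α. The 14 counts of vehicle granulocyte replicate 1 were the most in any library, and neighbouring groups overlapped throughout. IL1R2, the decoy receptor, had 0 counts in all 3 vehicle promyelocyte libraries and 0, 1 and 1 with TNF-α. Granulocytes had 3, 1 and 0 counts of IL1R2 with vehicle and 0, 0 and 2 with TNF-α, so no library exceeded the floor of 3. Neither gene passed the count filter. Fitted without that filter, IL1R1 gave a log2 fold change of -0.58 ± 0.807 in promyelocytes (adjusted p = 0.729, edgeR) and -0.17 ± 0.679 in granulocytes (adjusted p = 0.889, edgeR). At these depths no difference of either gene was detectable.

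IL1RAP, the accessory chain that IL1R1 needs for signalling, was well above the floor. Its counts were 1031, 915 and 956 in vehicle promyelocytes and 832, 855 and 980 with TNF-α. Vehicle granulocytes had 1298, 1598 and 1575 counts and TNF-α-treated granulocytes 680, 776 and 693. Granulocyte levels were 51.9 ± 1.67 CPM with vehicle and 29.9 ± 1.89 CPM with TNF-α. They differed by -0.81 ± 0.0619 on the log2 scale (SE, adjusted p = 7.78e-14, edgeR), a 1.75-fold decrease. The promyelocyte log2 fold change of -0.09 ± 0.0661 did not pass the test (adjusted p = 0.423, edgeR). With TNF-α, promyelocytes at 30.9 ± 0.379 CPM and granulocytes overlapped. IL1RAP shares 535 exon bases, 4.6% of its exon length, on the same strand with ENSG00000273370.1, which had 0 counts in every library. GCNT1P3 (8 to 27 counts) and RN7SKP296 (7 to 23) overlap IL1RAP on the same strand without shared exon bases.

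IL18R1, the ligand-binding chain of the IL-18 receptor, rose in both forms. Counts went from 497, 533 and 441 to 1572, 1676 and 1833 in promyelocytes, and from 181, 246 and 251 to 1677, 2039 and 1447 in granulocytes. The increase was 3.52-fold in promyelocytes (95% interval 3.13 to 3.97, adjusted p = 1.38e-12, edgeR) and 8.98-fold in granulocytes (8.07 to 10.0, adjusted p = 2.11e-29, edgeR). The gene shares 95 exon bases on the same strand with IL1RL1, which had at most 32 counts in any library.

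The gene of the soluble inhibitor of IL-18, IL18BP, had 378, 413 and 462 counts in vehicle promyelocytes and 363, 369 and 559 with TNF-α. The groups overlap and the log2 fold change was 0.06 ± 0.119 (SE, adjusted p = 0.79, edgeR), a fold of 1.04 with an interval of 0.877 to 1.24. Granulocyte counts were 907, 1016 and 1015 with vehicle and 931, 1102 and 842 with TNF-α, or 34.2 ± 0.652 and 39.9 ± 2.04 CPM. That increase of 1.15-fold passed the test (interval 1.06 to 1.26, adjusted p = 0.00458, edgeR) but not once trends with GC content and length were removed from each library (adjusted p = 0.0602, edgeR). IL18BP shares 675 exon bases, 15.6% of its exon length, with NUMA1 on the opposite strand (3785 to 6795 counts), and the counting was set to use strand.

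Over the list, 4 of the 9 members rose and 0 fell in promyelocytes, with 3 not past the test and 2 under the filter. Of all 16250 genes tested there, 14.8% were called, 8.15% higher and 6.65% lower. In granulocytes 5 rose and 2 fell, and the same 2 were under the filter, beside 49.3% called of 16944 genes, 24.4% higher and 24.8% lower. For the 7 tested members the median log2 fold change was 1.82 in promyelocytes, where all genes tested had -0.0094. It was 3.17 in granulocytes, where all genes had -0.0046. The filter counts as passed a gene that is high with TNF-α alone, so these medians describe 7 genes and not the list of 9.

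**Figure D2:**
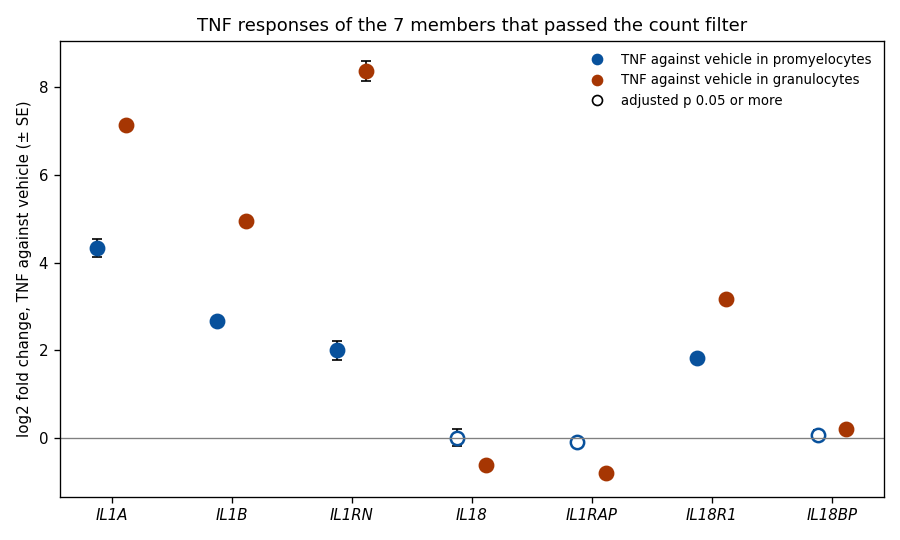
Log2 fold change of TNF-α against vehicle, with its SE, for the 7 members that passed the count filter, in promyelocytes (blue) and granulocytes (brown), with open points where the adjusted p was 0.05 or more. IL1A, IL1B, IL1RN and IL18R1 lie above 0 in both forms and higher in granulocytes, and IL18 and IL1RAP lie under 0 in granulocytes.

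Whether the responses differed between the forms was tested as an interaction in a fit of all 12 libraries. Each form was a separate experiment, so a difference between the forms cannot be told apart from one between the experiments. Per the paper, the forms were also resuspended at unlike cell densities, and only the granulocyte medium held ATRA. The granulocyte response was the larger for IL1RN by 6.43 on the log2 scale (SE 0.455, adjusted p = 3.51e-11, edgeR), for IL1A by 2.85 (SE 0.35, adjusted p = 6.07e-07, edgeR), for IL1B by 2.34 (SE 0.108, adjusted p = 7.82e-15, edgeR) and for IL18R1 by 1.39 (SE 0.121, adjusted p = 1.54e-09, edgeR). It was the lower for IL1RAP, at -0.68 (SE 0.0881, adjusted p = 1.46e-06, edgeR), and for IL18, at -0.61 (SE 0.207, adjusted p = 0.034, edgeR). The difference for IL18BP was 0.18 (SE 0.134, adjusted p = 0.358, edgeR), a fold of 1.14 with an interval of 0.938 to 1.37. Thus 6 members were called, 4 higher and 2 lower, beside 24% of all 18124 genes tested, 14.1% higher and 9.88% lower. Of the calls over all genes, 58.9% were higher with TMM and 48.4% with DESeq2 size factors, and the members kept their directions under both. The IL18 call was lost without any of 5 libraries, with adjusted p between 0.0524 and 0.206 in edgeR. These were promyelocyte vehicle replicate 1 (0.107) and TNF-α replicate 3 (0.206), granulocyte vehicle replicates 1 (0.0598) and 2 (0.0524), and granulocyte TNF-α replicate 1 (0.0715). The IL1RN difference was 8.16 without granulocyte vehicle replicate 3 and 5.83 without replicate 2.

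Before TNF-α, the forms also stood apart, and here too the cell type cannot be told apart from the experiment. All 7 tested members were called between vehicle granulocytes and vehicle promyelocytes, as were 72% of all 18124 genes, 35.7% higher and 36.3% lower. IL18 was higher in granulocytes by 3.22 on the log2 scale (SE 0.134, adjusted p = 9.85e-18, edgeR), a 9.32-fold difference. IL18BP was 2.36-fold higher, IL1A 1.93-fold and IL1RAP 1.55-fold. IL1RN was the lowest against promyelocytes, at -4.30 (SE 0.469, adjusted p = 5.3e-09, edgeR) on its 6 summed counts, and at -6.03 without granulocyte vehicle replicate 3 and -3.71 without replicate 2. IL18R1 was 2.16-fold lower in granulocytes and IL1B 1.48-fold lower.

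The order of the 4 groups differed among the members. IL1A, IL1B, IL1RN and IL18R1 were highest in granulocytes with TNF-α, next in promyelocytes with TNF-α, and no neighbouring groups overlapped. How many of all genes separate in this way was not counted, so the lack of overlap is not read as particular to the members. For IL1A the third place was held by vehicle granulocytes, and for the other three by vehicle promyelocytes. IL18BP was highest in granulocytes with TNF-α, then in vehicle granulocytes, with the promyelocyte groups overlapping below. IL18 was highest in vehicle granulocytes, then in granulocytes with TNF-α, above promyelocyte groups that overlap. IL1RAP was highest in vehicle granulocytes, then in vehicle promyelocytes, above the TNF-α groups, which overlap.

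Per kilobase of exon, which allows genes to be compared, IL1B made up most of the 4 ligand transcripts in promyelocytes. Its share of their summed CPM per kb was 77.1% with vehicle and 81.8% with TNF-α, while the sum went from 5.85–6.72 to 35.5–37.0 CPM per kb. In vehicle granulocytes IL18 had 66.3% and IL1B 29.9% of a sum of 10.7–10.9 CPM per kb. With TNF-α this sum was 157–183 CPM per kb, of which IL1B had 59.4%, IL1A 33.3%, IL1RN 4.49% and IL18 2.74%. These shares are means of 3 libraries, and IL18 ranged from 65.1% to 68.5% with vehicle and from 2.33% to 2.97% with TNF-α. Among the 4 receptor chains, IL18R1 went from 57.1% to 83.4% in promyelocytes and from 28.4% to 86.1% in granulocytes. IL1RAP held nearly all the rest, and IL1R1 and IL1R2 together stayed small, with IL1R1 at no more than 1.26% in any library.

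**Figure D3:**
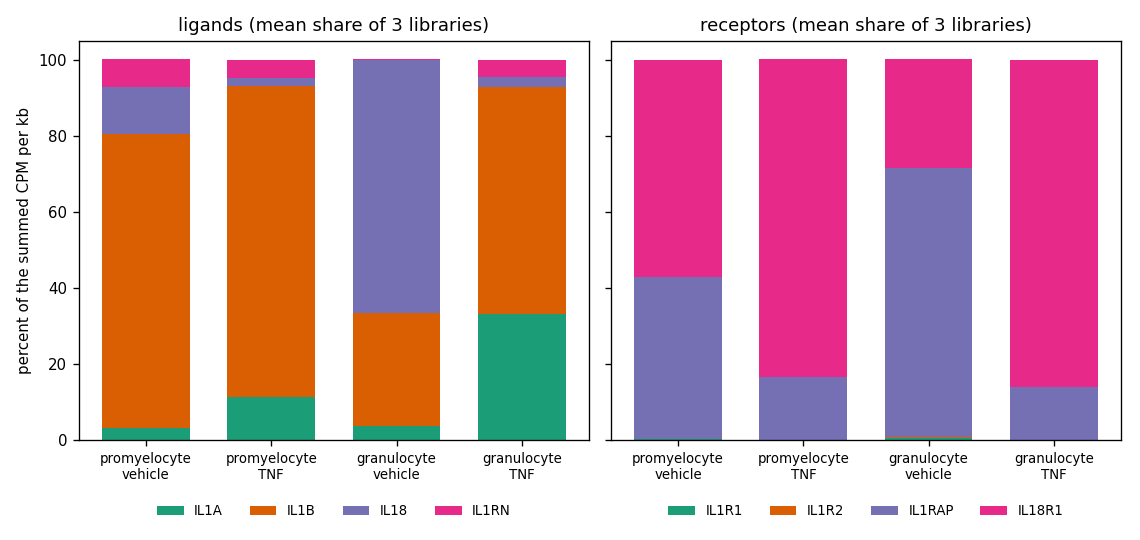
Mean share of each gene in the summed CPM per kb of the 4 ligand genes (left) and the 4 receptor chains (right), in percent, for the 4 groups of 3 libraries. IL18 has 66.3% of the ligand sum in vehicle granulocytes and 2.74% with TNF-α, and IL18R1 has 28.4% and 86.1% of the receptor sum.

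Ratios of counts within a library do not depend on library scaling, and 3 libraries against 3 cannot reach an exact two-sided permutation p below 0.1. There were 8.47, 15.3 and 8.48 IL1B read pairs for each IL1RN read pair in vehicle promyelocytes, and 14.4, 22.1 and 13.9 with TNF-α. The log2 ratio of IL1RN to IL1B changed by -0.67 there, and the groups overlap (exact permutation p = 0.3). Vehicle granulocytes gave 164, 615 and 56.6, where 0.5 was added to each count and IL1RN had 0 to 5, and TNF-α-treated granulocytes gave 12.8, 12.7 and 12.2. That was a change of 3.83 in the log2 ratio (exact permutation p = 0.1, no overlap), and of 2.94 without vehicle replicate 2. IL18BP to IL18 ratios were 7.08, 6.62 and 7.64 in vehicle promyelocytes and 7.06, 8.49 and 7.04 with TNF-α (exact permutation p = 0.7). In granulocytes they went from 1.77, 1.81 and 1.85 to 3.75, 2.98 and 3.10, a log2 change of 0.85 (exact permutation p = 0.1, no overlap). The IL1R2 to IL1R1 ratio, with IL1R2 at 0 to 3 counts and IL1R1 at 2 to 14, changed by 1.61 in promyelocytes (exact permutation p = 0.2) and by -0.60 in granulocytes (p = 0.5).

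**Figure D4:**
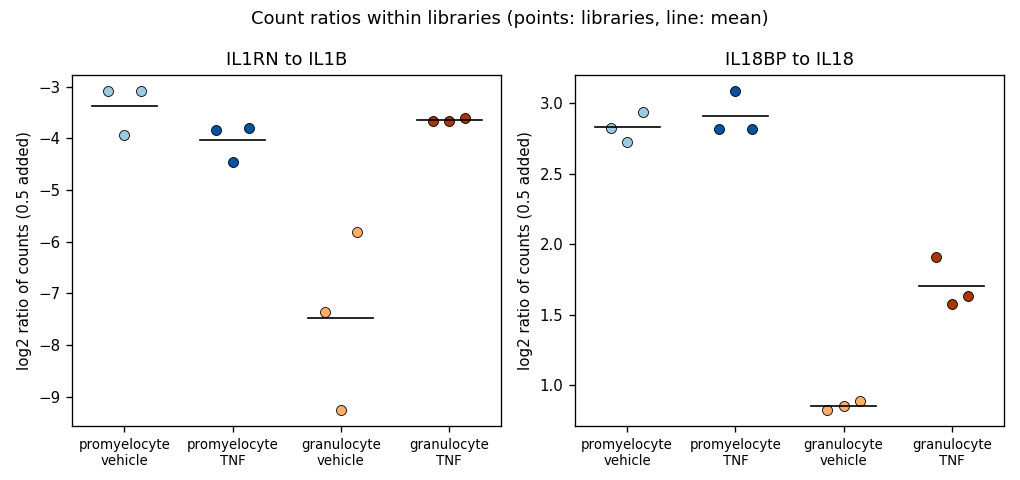
Log2 ratio of IL1RN to IL1B counts (left) and of IL18BP to IL18 counts (right) in each library, with 0.5 added to each count and lines at the means of 3 libraries. The IL1RN to IL1B ratio of vehicle granulocytes lies under all other groups and varies between -9.26 and -5.82, and the TNF-α-treated granulocytes lie together near -3.65.

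Among the other 13 genes of the family, 3 were tested in promyelocytes and 2 rose, and 2 were tested in granulocytes, of which 1 rose and 1 fell, beside 14.8% and 49.3% of all genes called. With so few genes tested, these counts are not read against that background. IL18RAP, the partner chain of IL18R1, had 83 to 102 counts in vehicle promyelocytes and 345 to 403 with TNF-α, and 120 to 145 and 234 to 395 in granulocytes. It rose by 2.01 ± 0.124 on the log2 scale in promyelocytes (SE, adjusted p = 1.99e-10, edgeR) and by 1.41 ± 0.124 in granulocytes (adjusted p = 3.61e-12, edgeR). IL1RL1, the receptor of IL-33, went from 5–10 to 19–32 counts in promyelocytes (log2 fold change 1.86, SE 0.429, adjusted p = 0.00475, edgeR) and had 0 or 1 count in granulocytes. IL1RL1 passed the count filter in promyelocytes only through its TNF-α-treated libraries. SIGIRR, an inhibitory receptor of the family, fell in granulocytes by 0.38 on the log2 scale (adjusted p = 9.71e-07, edgeR). IL36B, IL36RN, IL1F10, IL1RAPL1 and IL1RAPL2 had no count in any library. Between IL1A, IL1B and IL1RN on chromosome 2, IL37 had 1 to 11 counts, IL36G 0 to 9, IL36A 0 or 1, and ENSG00000280228 13 to 41. XIAPP3 had 4 to 16 counts, CDK8P2 at most 3, HMGN2P23 at most 1, and POLR2DP1 and RNU6-1180P none. Between IL1R2 and IL18R1, IL1RL2 had 0 to 5 counts, and FAM183DP and IL1R1-AS1 had none.

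Of 14 genes for maturation and release of IL-1β and IL-18, 11 were tested in promyelocytes, with 1 increase and 1 decrease, and 12 in granulocytes, with 2 increases and 5 decreases. The medians were 0.0015 and -0.16 on the log2 scale, beside -0.0094 and -0.0046 over all genes tested. Of all genes, 14.8% were called in promyelocytes and 49.3% in granulocytes, so the number of genes called in this list was near the background in both forms. NLRP3, the sensor of the best known inflammasome, rose by 0.79 in promyelocytes (adjusted p = 2.07e-06, edgeR) and by 1.55 in granulocytes (adjusted p = 6.29e-20, edgeR). NLRC4, a sensor of bacterial flagellin and secretion systems, fell by 1.14 and 1.10 (adjusted p = 0.00687 and 2.88e-16, edgeR). In granulocytes the sensor NLRP1 fell by 1.89 and NEK7, a partner of NLRP3, by 0.63, and CARD16 rose by 0.23 (adjusted p = 0.0498, edgeR). Without promyelocyte TNF-α replicate 3, 5 genes of this list were called in promyelocytes instead of 2.

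All 16 genes of receptor-proximal signalling were tested. In promyelocytes 5 rose and 1 fell, and in granulocytes 10 rose and 3 fell, with medians of 0.04 and 0.27 on the log2 scale. Of all genes tested, 8.15% rose and 6.65% fell in promyelocytes, and 24.4% rose and 24.8% fell in granulocytes. IRAK2, a kinase of the IL-1 receptor complex, rose by 2.75 in promyelocytes (3 to 11 counts with vehicle, 48 to 53 with TNF-α, adjusted p = 1.51e-05, edgeR) and by 3.83 in granulocytes (7 to 14 and 112 to 143 counts, adjusted p = 1.78e-15, edgeR). In both forms IRAK2 passed the count filter only through its TNF-α-treated libraries. PELI1, a ubiquitin ligase of this pathway, rose by 1.62 and 1.18, and the adaptor MYD88 by 0.59 in promyelocytes and 0.57 in granulocytes. PELI3 rose by 0.93 in granulocytes. PELI2 fell by 1.57 and IRAK4 by 0.37 in granulocytes, and TAB1 fell by 0.20 in promyelocytes and 0.41 in granulocytes.

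**Figure D5:**
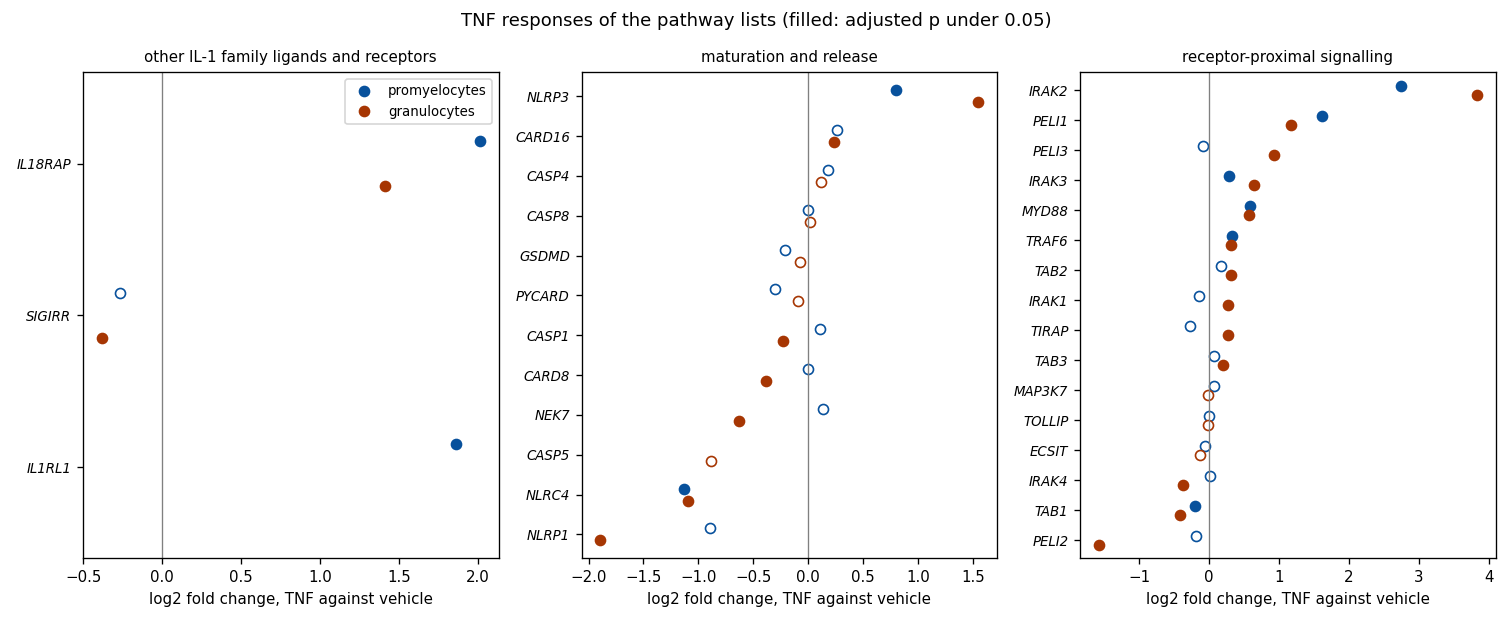
Log2 fold change of TNF-α against vehicle for the tested genes of the 3 pathway lists, in promyelocytes (blue) and granulocytes (brown), with filled points where the adjusted p was under 0.05. IRAK2, PELI1, NLRP3 and IL18RAP lie above 0 in both forms, and NLRC4 and TAB1 under 0 in both.

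Across the 12 libraries, which share 4 groups and so hold few independent points, the genes whose log2 CPM followed IL1B most closely were CTSH (Pearson r = 0.994), CGN (0.993) and LRP12 (0.992), of 15019 genes searched. For IL1RN they were TRAF3 (0.989), CDC42EP2 (0.989) and the gene ENSG00000112096.16 (0.988), which no symbol was matched to,, and for IL1R1 ENSG00000236576 (0.799), SCAMP1-AS1 (0.762) and RPL5P4 (0.746). IL1R1 had 2 to 14 counts in these libraries. These are descriptions of pattern, with no test.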

How the data were processed

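RNA of 12 HL-60/S4 libraries was depleted of ribosomal RNA and sequenced as 150-base pairs by the authors, who aligned reads to hg38 with STAR 2.5.3a, counted read pairs per GENCODE v27 gene with featureCounts 1.5.2 and deposited the raw counts without normalization. Per the file headers, counting took primary alignments with both ends mapped, no chimeras, on the reverse strand. The counts lose pairs that fall on exons of more than 1 gene of the same strand. Symbols were matched for 57532 of 58288 identifiers.

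Promyelocyte and granulocyte libraries were fitted separately in edgeR 4.0.16 (R 4.3.3, limma 3.58.1), with TMM, filterByExpr (minimum count 10, minimum total 15), quasi-likelihood test, Benjamini-Hochberg adjustment over all genes tested, threshold 0.05. Standard errors are the log2 fold change divided by the root of F. The interaction and the vehicle comparison used all 12 libraries in 4 groups. Scripts were tested on simulated data. DESeq2 1.42.0 was an alternative, with other normalization, filters, thinning, the replicate block and each library left out. The floor of 3 counts was a fixed setting, which library totals turn into CPM. Samples were grouped by their labels. Same-numbered vehicle and TNF-α libraries did not deviate together, and the main fits did not pair them. With 3 libraries per group this check cannot tell whether the flasks were paired.

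The members and gene lists were chosen with earlier results of these data known. Beyond the 9 members, genes named from each pathway list were, per cell type, the up to 3 largest called increases and decreases and any undetected gene. Also named were genes overlapping or lying between members, NFKBIA and TNFAIP3, and the 3 genes most correlated with IL1B, IL1RN and IL1R1. From the cell type marker lists, some single genes were named beside the sums.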

Additional observations from a re-analysis of the deposited data

Results flagged for a closer look

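The TNF-α response differed between granulocytes and promyelocytes for 6 members by the interaction test of edgeR (n = 3 per group). Cell type cannot be told apart from experiment in that test. The granulocyte response was larger by 6.43 on the log2 scale for IL1RN, 2.85 for IL1A, 2.34 for IL1B and 1.39 for IL18R1, and the difference was -0.68 for IL1RAP and -0.61 for IL18. The size for IL1RN rests on 6 summed counts in vehicle granulocytes and ranged from 5.83 to 8.16 over the left-out libraries. All 3 TNF-α libraries lay above all 3 vehicle libraries in both forms for IL1RN, IL1A, IL1B and IL18R1. For IL1RAP and IL18 all 3 TNF-α libraries lay under the vehicle libraries in granulocytes. The share of all genes with such separation was not counted. Groups of 3 are too small for a check of single outlying libraries.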

How the results depend on the processing

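Of 455 member values under alternatives, 436 kept their direction and their side of the threshold, 9 lost a call, 2 gained one and 8 turned sign. The counts of members called stayed at 4 in promyelocytes and 7 in granulocytes without any single library, and between 5 and 6 for the difference of the responses. The values that turned sign were all uncalled log2 fold changes in promyelocytes: IL18 at -0.0003 with DESeq2, -0.0166 with the replicate block, -0.0154 with all 12 libraries in 1 fit, -0.0846 after removal of GC and length trends, and -0.1136 and -0.2015 without vehicle replicate 1 and TNF-α replicate 3 (range over left-out libraries -0.2015 to 0.1569), and IL18BP at -0.0555 and -0.0823 without the same libraries (range -0.0823 to 0.1449). The cause was not tested.

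The IL18 difference between the responses lost its call at a threshold of 0.01 (adjusted p = 0.034 in edgeR), with the replicate block (-0.59, adjusted p = 0.0679) and after GC and length trends were taken out (-0.48, adjusted p = 0.0932), an alternative chosen after seeing the data. That alternative also put IL1RAP in promyelocytes past the threshold (-0.18, adjusted p = 0.0491 in edgeR) and ended the IL18BP call in granulocytes (0.12, adjusted p = 0.0602), and it moved the median of all genes between the vehicle groups by -0.14. Without promyelocyte TNF-α replicate 3, IL18BP gained a call between the responses (0.33, adjusted p = 0.04997 in edgeR). Maturation genes called in promyelocytes ranged from 2 to 5 over the left-out libraries, and the IL1RN to IL1B log2 ratio in granulocytes changed by 2.94 to 4.66. Of calls between the responses over all genes, 58.9% were higher with TMM, 48.4% with DESeq2 size factors, 44.2% with no filter and 45.8% with the DESeq2 test.

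Same-numbered libraries correlated at -0.293 to -0.153 in promyelocytes and -0.169 to -0.008 in granulocytes in their deviations from group means. With the replicate block, calls over all genes went from 2405 to 1833 in promyelocytes, 8345 to 7722 in granulocytes and 4351 to 3349 for the difference. Members called were 4, 7 and 5. Vehicle granulocyte IL1RN and all IL1R1 and IL1R2 values are limited by depth.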
